A study of Mus musculus with 6 samples.

Results

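The 10 genes examined here, Adipoq, Lep, Cfd, Retn, Pparg, Plin1, Plin4, Cidec, Fabp4 and Lipe, are genes of the white adipocyte, the fat-storing cell of adipose tissue. They were taken by gene symbol from the 21720 symbols of the deposited table, and all 10 were found. Of these, 9 passed the filter on low counts and were tested among 14963 genes. Lep was the member that did not pass.

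The RNA came from tumours that H22, a line of mouse liver cancer cells, formed under the skin of BALB/c mice, whose genotype is labelled WT. The study's methods give the mice as female and 6 to 8 weeks old. Control mice (3 libraries) were gavaged with the vehicle, 0.5% carboxymethyl cellulose sodium, and luteolin mice (3 libraries) with 200 mg/kg of the plant flavonoid luteolin, in 0.2 mL each day for 21 days once the tumours had reached about 50 mm3. The libraries are named here control and luteolin replicates 1 to 3. The tumour was sequenced as bulk tissue, so fewer cells of a type and less RNA per cell cannot be told apart. The labels do not tie a library to a mouse, and p values therefore measure only the spread between these samples.

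White adipocytes hold triglyceride in a single large lipid droplet, release fatty acids from it on demand and secrete hormones known as adipokines. Their gene programme is switched on by the nuclear receptor PPARγ together with C/EBP factors, and the skin under which the tumours grew normally carries a layer of such cells. Several of the 10 genes are not confined to fat. Fabp4 and Pparg are also used by macrophages, Fabp4 by capillary endothelium, and Lipe and Plin4 by other tissues that store lipid.

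Total counts ranged from 61081637 to 80442954 per library, and luteolin replicate 2 had the largest total and the most genes above 0 counts (16767, against 15579 to 16012 in the others). Levels are given as CPM, counts scaled to the library total with TMM factors. A library with 0 counts may still hold a level worth up to 3 counts by counting error alone, and up to 12 counts if 1 read pair was counted as 4 units. The labelled hepatoma was checked with Afp, the fetal liver protein, which lay between 2000 and 4316 counts in every library. Alb, the albumin gene, ranged from 56 to 8118 counts, and Serpina1a, another liver gene, from 10 to 582. Of the 8 hepatocyte genes listed, 4 were at or under 3 counts in control replicates 1 and 3, and 0 in the other libraries. The list as a whole was therefore not measured evenly in every library.

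Apart from Pparg, the control and luteolin libraries overlapped in every member. Adipoq, Plin1, Cfd, Lep, Cidec and Retn were at or near 0 in control replicates 1 and 2, were at or near 0 in luteolin replicate 3 with the exception of Cfd, were mostly present in control replicate 3 and luteolin replicate 1, and were highest in luteolin replicate 2. Summed over these 6 genes, which all had 7 or fewer counts in control replicates 1 and 2, the level was 0, 0.185 and 24.1 CPM in control replicates 1, 2 and 3 and 16.9, 189 and 2.10 CPM in luteolin replicates 1, 2 and 3. Control replicate 3 thus lay above luteolin replicates 1 and 3. They were grouped after their values had been seen.

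**Figure D1:**
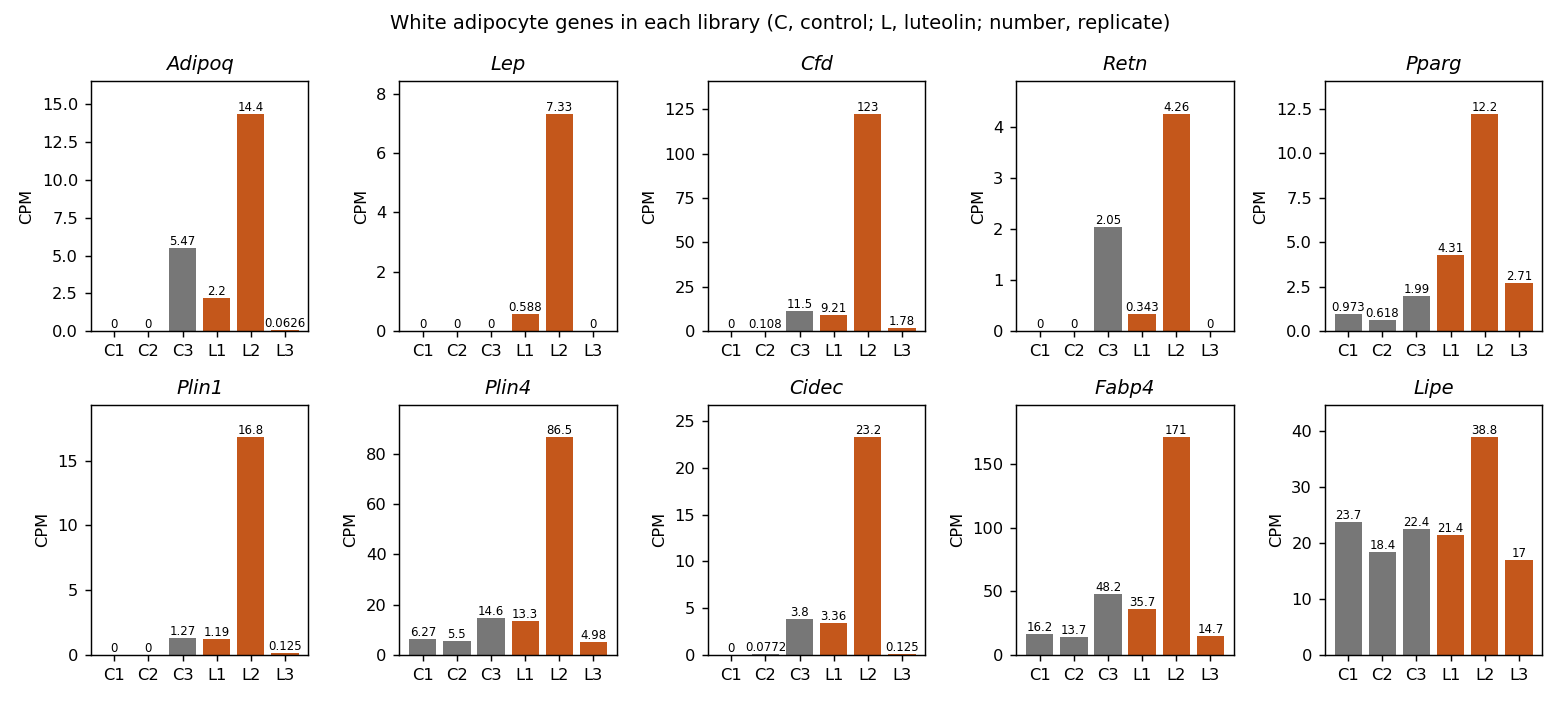
Level of each of the 10 adipocyte genes in each library, as CPM on linear axes that start at 0 and differ between panels (grey bars, control; orange bars, luteolin; the value stands on each bar). Luteolin replicate 2 (L2) is the highest library in all 10 panels, and control replicate 3 (C3) is second in Adipoq, Cfd, Retn, Plin1, Plin4, Cidec and Fabp4.

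Among the adipokines, Adipoq encodes adiponectin, the hormone that defines mature adipocytes. It had 0, 0 and 353 counts in control replicates 1, 2 and 3 and 135, 1202 and 4 counts in luteolin replicates 1, 2 and 3, or 5.47 CPM in control replicate 3 against 2.20, 14.4 and 0.0626 CPM in the luteolin libraries. The groups overlapped, with control replicate 3 above 2 of the 3 luteolin libraries. The group means were 1.82 ± 3.16 CPM in control and 5.55 ± 7.73 CPM in luteolin (SD, n = 3 each), and the log2 fold change was 1.61 with a standard error of 2.33 (adjusted p = 0.762, from the quasi-likelihood test of edgeR adjusted over all tested genes by the Benjamini-Hochberg method, as are the adjusted p values that follow unless another tool is named).

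Retn encodes resistin, an adipokine of mouse fat. It had 0, 0 and 132 counts in the control libraries and 21, 356 and 0 counts in the luteolin libraries. Its order over the libraries was that of Adipoq, except that luteolin replicate 3 had no count. For Retn the log2 fold change was 1.17 with a standard error of 2.33 (adjusted p = 0.832 in edgeR's test).

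Cfd encodes complement factor D, also called adipsin, the protease that starts the alternative complement pathway and a major secreted product of fat. It had 0, 7 and 741 counts in control replicates 1, 2 and 3 and 564, 10243 and 114 counts in luteolin replicates 1, 2 and 3. At 123 CPM, luteolin replicate 2 was 10.7-fold above the next library, control replicate 3 at 11.5 CPM. In luteolin replicate 3, where the other 5 genes of the sum had 8 counts or fewer, Cfd had 1.78 CPM. The log2 fold change was 3.53 with a standard error of 2.25 (adjusted p = 0.436 in edgeR's test).

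Lep encodes leptin, the satiety hormone that fat secretes in proportion to its stores. It had 0 counts in each control library and in luteolin replicate 3, 36 counts in luteolin replicate 1 and 612 counts in luteolin replicate 2. It differed from the other adipokines in control replicate 3, which held 353 Adipoq and 132 Retn counts but no Lep count. With the controls set at 3 counts per library, the luteolin mean of 2.64 CPM was at least 58.3-fold higher, and at least 14.6-fold higher with 12 counts. This value rests on luteolin replicate 2, which holds 92.6% of the summed CPM of Lep. Lep was left out of the main test by the filter. Without the filter the adjusted p of Lep was 0.199 in edgeR's test, and in DESeq2 it was 0.0805.

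The 250 bases before the RefSeq start (GRCm38.p6 table, given 5′ to 3′ on the gene's strand) are shown for 4 members, to set their letters beside the levels: Adipoq as the defining gene, Plin1 as the window with the most C/EBP-like matches, Lep as the member absent from control replicate 3, and Cfd as a member with no match. The table held 13 windows for 9 of the 10 symbols, all but Fabp4. Capitals mark AGGTCA, the nuclear receptor element, TTNNGNAA, a relaxed C/EBP element, and TATAAA, each searched on both strands.
Adipoq, chr16:23146286-23146535, plus strand: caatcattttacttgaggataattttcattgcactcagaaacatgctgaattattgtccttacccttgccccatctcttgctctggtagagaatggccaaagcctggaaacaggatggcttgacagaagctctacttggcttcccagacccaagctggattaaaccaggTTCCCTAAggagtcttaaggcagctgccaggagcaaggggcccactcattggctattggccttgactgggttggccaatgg
Plin1, chr7:79732777-79733026, minus strand: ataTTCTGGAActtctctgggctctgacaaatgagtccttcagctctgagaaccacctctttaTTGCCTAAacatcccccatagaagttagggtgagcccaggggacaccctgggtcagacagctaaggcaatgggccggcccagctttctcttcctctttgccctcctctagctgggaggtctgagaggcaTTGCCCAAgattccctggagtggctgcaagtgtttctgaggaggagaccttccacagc
Lep, chr6:29059971-29060220, plus strand: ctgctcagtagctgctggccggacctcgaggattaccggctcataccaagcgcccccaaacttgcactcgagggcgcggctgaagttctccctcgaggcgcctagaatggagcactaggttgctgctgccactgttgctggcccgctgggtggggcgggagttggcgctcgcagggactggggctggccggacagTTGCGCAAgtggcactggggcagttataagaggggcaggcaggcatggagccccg
Cfd, chr10:79890603-79890852, plus strand: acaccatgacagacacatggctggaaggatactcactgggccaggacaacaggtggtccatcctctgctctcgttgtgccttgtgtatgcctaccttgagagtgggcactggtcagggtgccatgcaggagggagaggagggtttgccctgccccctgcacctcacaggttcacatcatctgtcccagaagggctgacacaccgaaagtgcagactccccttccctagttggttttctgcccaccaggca

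Lep alone among the 13 windows held the full C/EBP palindrome TTGCGCAA, starting at position -55 from its start, a string that 0.164% of the 32851 promoters in the table hold. The relaxed TTNNGNAA was in 36.8% of all promoters. Among the 13 windows it was in 1 place in Adipoq, 3 in Plin1, 1 in Lep and 2 in window 3 of Pparg. Windows 1 and 2 of Cidec held it in 2 places and 1 place. It was absent from every window of Cfd, Plin4, Retn and Lipe and from windows 1 and 2 of Pparg. AGGTCA, in 14.0% of promoters, was found in 2 windows of Pparg and in no other, and the DR1 element, a direct repeat of it that PPARγ binds with RXR and that 0.0335% of promoters hold, was in none of the 13. These matches are a description of letters in these windows, and nothing about binding was measured.

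Pparg, which encodes PPARγ, the nuclear receptor that drives adipocyte differentiation and the target of the thiazolidinedione drugs, was the member whose groups did not overlap. It had 68, 40 and 128 counts in control replicates 1, 2 and 3 and 264, 1022 and 173 counts in luteolin replicates 1, 2 and 3. The CPM were 0.973, 0.618 and 1.985 in control and 4.31, 12.2 and 2.71 in luteolin. Every luteolin library was above every control library, a pattern that 15.9% of all tested genes showed. Relative to the control mean of 1.19 CPM, luteolin replicates 1, 2 and 3 stood at 3.62, 10.3 and 2.27 times that level. Its log2 fold change of 2.43, with a standard error of 0.72, passed the study's threshold (unadjusted p under 0.05 with a log2 fold change over 1), but the adjusted p was 0.139 in edgeR. DESeq2 gave Pparg an adjusted p of 0.00818 and limma's voom 0.0136, and over all alternatives the adjusted p ranged from 0.00818 to 0.389. Pparg also differed from the other members in luteolin replicate 3, where it was above its level in control replicate 3 although Adipoq was at 4 counts there. Macrophages use Pparg as well, and 7 of 8 macrophage markers had an unadjusted p under 0.05 in the same comparison, against 20.5% of all tested genes. Among them Cd68, a lysosomal protein of phagocytes, was higher by a log2 fold change of 1.16, with an adjusted p of 0.0331 in edgeR's test. The part of these cells in the Pparg values was not tested.

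The coat of the lipid droplet is represented by 3 members. Plin1 encodes perilipin 1, which covers the droplet of adipocytes and restrains lipolysis. It had 0, 0 and 82 counts in the control libraries and 73, 1403 and 8 counts in the luteolin libraries. Control replicate 3 and luteolin replicate 1 were level, at 1.27 and 1.19 CPM, and luteolin replicate 2 reached 16.8 CPM. For Plin1 the log2 fold change was 3.83 with a standard error of 2.29 (adjusted p = 0.405 in edgeR's test).

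Cidec encodes CIDEC, also known as FSP27, which fuses small lipid droplets into a large one. It had 0, 5 and 245 counts in the control libraries and 206, 1943 and 8 counts in the luteolin libraries. As for Plin1, luteolin replicate 2 was followed by control replicate 3, luteolin replicate 1 and luteolin replicate 3. For Cidec the log2 fold change was 2.79 with a standard error of 2.16 (adjusted p = 0.528 in edgeR's test).

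Plin4 encodes perilipin 4, which coats nascent droplets. It was measured in every library, with 438, 356 and 939 counts in control and 816, 7225 and 318 counts in luteolin. Luteolin replicate 3, at 4.98 CPM, was the lowest library and luteolin replicate 2, at 86.5 CPM, the highest, so the luteolin group spanned the whole range of the controls. The log2 fold change was 1.99 with a standard error of 1.01 (adjusted p = 0.324 in edgeR's test). Exons of Plin4 overlap those of Hdgfl2 on the opposite strand in GENCODE M21, and since strand-specific counting is not stated, reads of that overlap could not be told apart.

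Fabp4 encodes the cytosolic fatty acid carrier of adipocytes and was the member with the highest mean CPM in both groups. It had 1129, 889 and 3107 counts in control replicates 1, 2 and 3 and 2189, 14283 and 939 counts in luteolin replicates 1, 2 and 3. In the 3 libraries where Adipoq was at 4 counts or fewer, control replicates 1 and 2 and luteolin replicate 3, Fabp4 still had 16.2, 13.7 and 14.7 CPM. Control replicate 3 stood 3.22-fold above the mean of the other controls. The group means were 26.02 ± 19.23 CPM in control and 73.8 ± 84.8 CPM in luteolin (SD, n = 3 each), and the log2 fold change was 1.504 with a standard error of 0.92 (adjusted p = 0.417 in edgeR's test).

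Lipe encodes hormone-sensitive lipase, which cleaves diacylglycerol in adipocytes. It varied least of the 10 members, with 1654, 1191 and 1443 counts in control and 1308, 3241 and 1087 counts in luteolin. Control replicate 3 did not stand apart from the other controls in Lipe, at 1.06-fold of their mean, and luteolin replicate 2 was 1.64-fold above the next library. For Lipe the log2 fold change was 0.26 with a standard error of 0.33 (adjusted p = 0.722 in edgeR's test). An antisense gene, 4732471J01Rik, overlaps exons of Lipe, with the same limit as for Plin4.

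Of the 9 tested members, 1 passed the study's threshold as higher in luteolin (Pparg), where 11.3% of all tested genes did, and 0 were lower, where 1.52% of all genes were. At an adjusted p under 0.05 the count was 0, against 1.34% of all tested genes higher and 0.187% lower. At an unadjusted p under 0.05 it was 1 in edgeR, where 20.5% of all tested genes were. In DESeq2 1 of 10 members, Pparg, reached an adjusted p under 0.05, against 11.2% of all genes in either direction, and in voom 1 of 9, Pparg, against 21.4%. These member shares were near or below those over all genes. At the study's threshold the share differed between alternatives. DESeq2 called 2 of 10 members higher (Pparg and Lep), against 11.5% of all genes, and voom 3 of 9 (Pparg, Plin1 and Cfd), against 11.7%. With RLE or upper-quartile scaling in place of TMM it was 1 of 9, against 11.1% and 11.8% of all genes. Over the 9 members of the main test, the median log2 fold change was 1.99, against -0.01 over all tested genes. Every one of these 9 had its highest value in luteolin replicate 2, as did 34% of all tested genes. In 8 of the 9, all but Lipe, luteolin replicate 2 was more than 2-fold above every other library, where 9.24% of all tested genes were.

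Within the control group, the same 8 members were more than 2-fold higher in control replicate 3 than in both other control libraries, where 4.89% of all tested genes were. This count was made after the member values had been seen. The fold changes of the members turned on these libraries. Without control replicate 3, the study's threshold was passed by 5 of 10 members, Adipoq, Cfd, Plin1, Cidec and Pparg, against 9.57% of all tested genes. Without luteolin replicate 3 it was passed by 4 of 10, Plin4, Fabp4, Lep and Pparg, against 13.6% of all tested genes. Without luteolin replicate 2, Pparg passed alone of 9, with a log2 fold change of 1.58, against 7.52% of all tested genes. The log2 fold change was then 0.66 for Plin1, 0.53 for Cfd, 0.46 for Cidec and 0.08 for Plin4, and it turned negative for Adipoq (-0.66), Retn (-1.96), Fabp4 (-0.02) and Lipe (-0.15). No member reached an adjusted p under 0.05 in edgeR with any library left out. Without control replicate 1, 2 or 3 or luteolin replicate 1, 0% of all tested genes did, so those fits do not set the members apart. Without luteolin replicates 2 and 3, 2.06% and 1.06% of all tested genes did, in either direction.

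**Figure D2:**
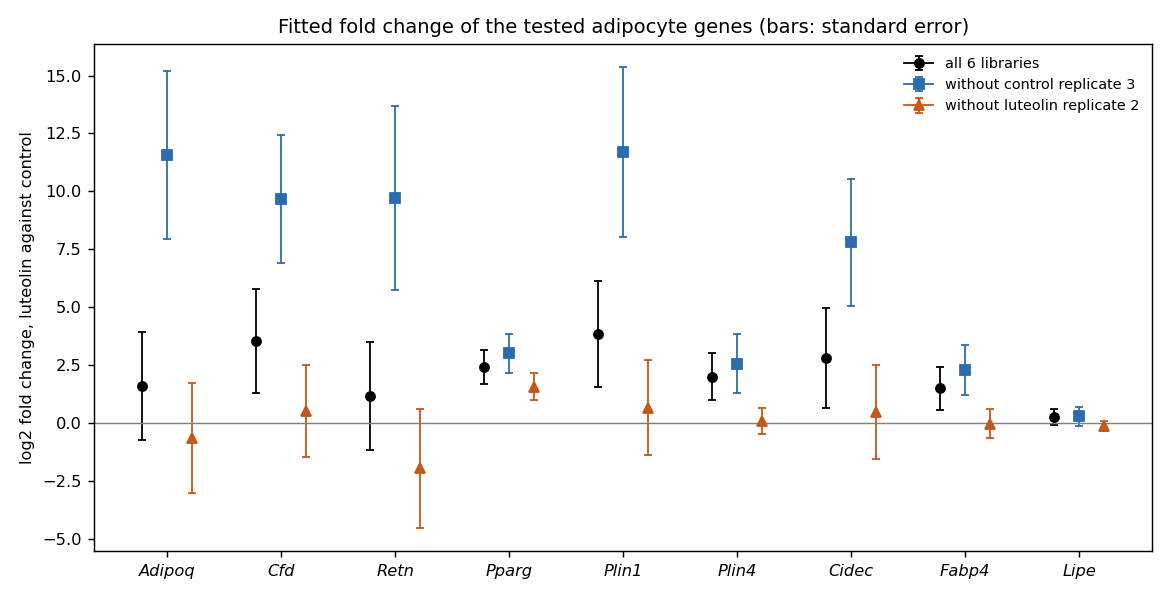
Fitted log2 fold change of the 9 tested members (luteolin against control, bars are standard errors worked back from the test) with all 6 libraries, without control replicate 3 and without luteolin replicate 2. Pparg is above 0 in each fit, from 1.575 to 3.005, while Adipoq moves from 1.61 to 11.57 without control replicate 3 and to -0.66 without luteolin replicate 2; with Adipoq, Plin1 and Retn at 0 counts in the remaining controls, their values without control replicate 3 depend on the prior count and are no measure of size.

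The members were then set against Adipoq within the 3 libraries in which Adipoq had over 12 counts. Per 100 CPM of Adipoq, Cfd had 210 CPM in control replicate 3, 418 in luteolin replicate 1 and 852 in luteolin replicate 2. Plin1 had 23.2, 54.1 and 117 CPM, and Cidec 69.4, 153 and 162 CPM, in the same order. Lep had 0, 26.7 and 50.9 CPM. Plin4, Fabp4 and Pparg were also lowest in control replicate 3, but were highest in luteolin replicate 1, at 604, 1621 and 196 CPM. For Plin4 luteolin replicate 2 was level with it, at 601 CPM. In each of these 7 genes control replicate 3 was the lowest of the 3 libraries. Retn was highest in control replicate 3, with 37.4 CPM per 100 CPM of Adipoq in control replicate 3, 15.6 in luteolin replicate 1 and 29.6 in luteolin replicate 2. Lipe had 409, 969 and 270 CPM in the same order and was lowest in luteolin replicate 2. The ratios are those of single libraries and have no replicate. All share Adipoq as denominator, which was lower in luteolin replicate 1 than in control replicate 3 and luteolin replicate 2. Plin4, Fabp4, Lipe and Pparg averaged 5.88, 14.9, 21.0 and 0.795 CPM in control replicates 1 and 2, where Adipoq was at 0 counts. Their ratios therefore include a level that was also present without Adipoq, and do not measure adipocyte genes alone.

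**Figure D3:**
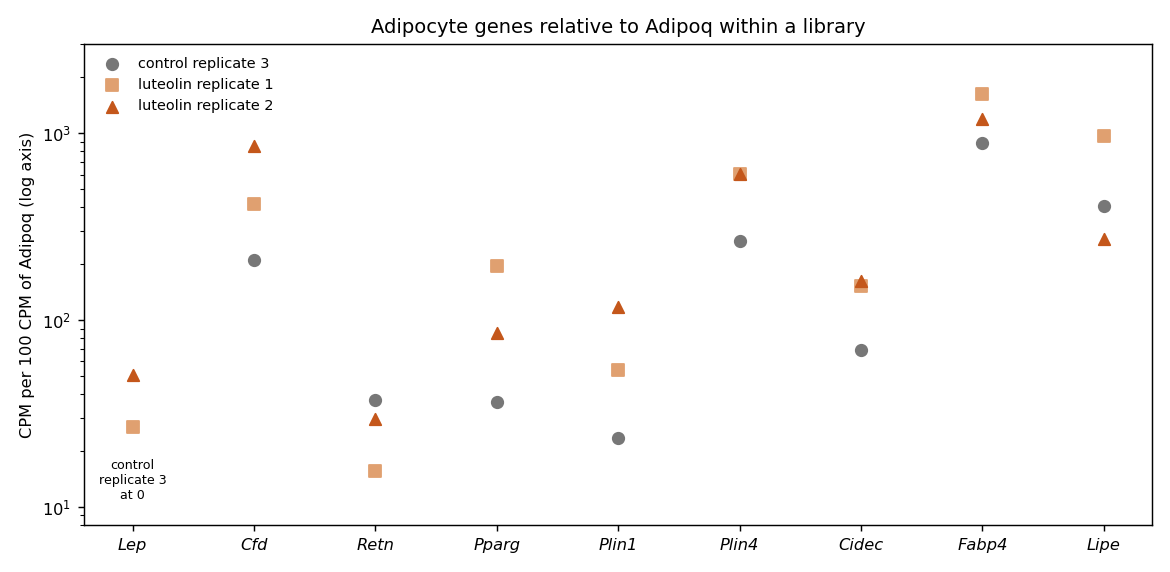
CPM of each member per 100 CPM of Adipoq in the same library (log axis), for control replicate 3 and luteolin replicates 1 and 2, the libraries with over 12 Adipoq counts. Cfd rises from 210 to 852 and Plin1 from 23.2 to 117 between control replicate 3 and luteolin replicate 2, while Retn lies between 15.6 and 37.4; Lep is at 0 in control replicate 3.

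Divided by gene length (CPM per kilobase of merged GENCODE M21 exons, which counts exons of every annotated transcript), Cfd was the highest member in luteolin replicate 2 at 133 and in control replicate 3 at 12.5, followed in both by Fabp4 at 38.1 and 10.7. Lep was the lowest in luteolin replicate 2 at 2.18. In control replicate 1, where the more specific members were at 0, Lipe stood highest at 4.02 and Fabp4 next at 3.60. These orders depend on the merged lengths, such as 4489 bases for Fabp4 and 922 for Cfd. By CPM without length, Fabp4 was above Cfd in luteolin replicate 2 (170.9 against 122.6) and in control replicate 3 (48.18 against 11.49). Retn was then below Lep in luteolin replicate 2 (4.261 against 7.325).

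Over the 6 libraries, the profiles nearest to that of Adipoq were sought among 13274 tested genes with a mean of at least 1 CPM, by the root mean square difference of centred log2 CPM. Cidec was the nearest of all at 0.73. Plin1 and Retn were at ranks 3 and 4 (0.92 and 0.94) and Cfd at rank 8 (1.37), where the median gene was at 3.67. The other members lay farther off, with Fabp4 at rank 108, Plin4 at 120, Pparg at 178 and Lipe at 2258 (3.40). Outside the members, the 5 nearest were Mup17 (0.82), Mup22 (0.97), Mup10 (1.10), Mup2 (1.36) and Mup13 (1.38), all major urinary protein genes, which encode pheromone-carrying lipocalins. Mup17 had 0, 0 and 75 counts in control and 96, 752 and 0 counts in luteolin, and Mup10 had 0, 0 and 137 against 151, 1030 and 28. Since these genes are near-identical copies, reads may have been divided among them in counting, and single values are uncertain. The next genes outside the members, after Mup14, included Pck1 (1.46), an enzyme of glycerol synthesis in fat, which had 0, 12 and 248 counts in control and 84, 644 and 23 in luteolin and was chosen after its values were seen.

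Other genes of the adipocyte programme were counted in 7 lists by role, 78 genes of which 76 were tested. Of these, 12 passed the study's threshold as higher (15.8%, against 11.3% of all tested genes), 0 as lower, and 0 reached an adjusted p under 0.05. Their median log2 fold change was 0.55. Without luteolin replicate 2 the count was 4, without any one control library it was 7, and voom gave 7. The genes named below as passing were named after their values were seen, apart from Angptl4 and Fabp5.

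**Figure D4:**
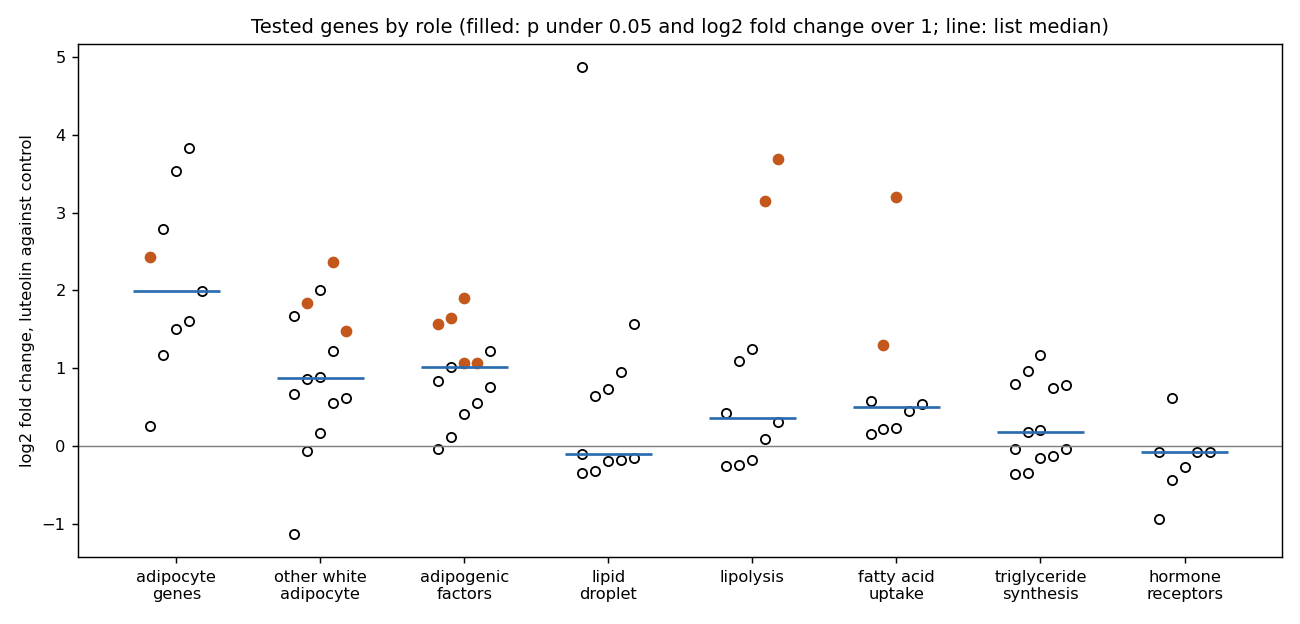
Log2 fold change of every tested gene (luteolin against control) in the adipocyte genes and in 7 lists of their pathway. Filled points passed the study's threshold and the line is the median of each list, which is 1.99 for the adipocyte genes, 1.02 for the adipogenic factors and -0.08 for the hormone receptors.

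Of 14 tested genes in a list of other white adipocyte genes, 3 passed the threshold as higher. These were Trarg1, a regulator of glucose transporter trafficking, Rbp4, the plasma retinol carrier, and Angptl4, a secreted inhibitor of lipoprotein lipase. Angptl4 had 1152, 738 and 933 counts in control and 2975, 6764 and 1378 in luteolin, with a fold change of 1.84 on the log2 scale (SE 0.46) and an adjusted p of 0.101 in edgeR's test. The groups did not overlap, and control replicate 3 did not stand apart. Car3, carbonic anhydrase 3 of fat and muscle, had 1772, 263 and 2885 counts in control and 1357, 8579 and 646 in luteolin (log2 fold change 0.86, adjusted p = 0.702 in edgeR's test). Like most members, it was highest in luteolin replicate 2 and next in control replicate 3. Unlike them, it was higher in control replicate 1, at 25.4 CPM, than in luteolin replicates 1 and 3, at 22.2 and 10.1 CPM. Sncg had 11.9 ± 4.14 CPM in control and 11.4 ± 3.58 CPM in luteolin (SD, n = 3 each). Lgals12, a lectin of adipocytes that was not tested and was chosen after its values were seen, had 0, 0 and 21 counts in control and 0, 175 and 4 in luteolin. In 3 of the 14 tested genes every luteolin library was above every control library, as in 15.9% of all tested genes. In 1, Acvr1c, every luteolin library was below, as in 12.8% of all tested genes. Acvr1c, also chosen after its values were seen, had a log2 fold change of -1.12 (adjusted p = 0.258 in edgeR's test).

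Of the 13 tested adipogenic factors, 5 passed as higher, Cebpa, Nr1h3, Rxra, Ebf1 and Ppard. Cebpa encodes C/EBPα, the partner of PPARγ in adipocytes, and had 15.1 ± 1.13 CPM in control and 56.4 ± 56.1 CPM in luteolin (SD, n = 3 each). For Cebpa the log2 fold change was 1.90, with an adjusted p of 0.178 in edgeR's test. Rxra, which encodes the dimer partner of PPARγ, had a log2 fold change of 1.57 and Nr1h3, the liver X receptor α gene, one of 1.65. Ppard, the PPARδ gene, had a log2 fold change of 1.07 with the smallest standard error of the 5, 0.23 (adjusted p = 0.0721 in edgeR's test). Control replicate 3 was not more than 2-fold above the other controls in any of the 13 factors, in contrast to 8 of the 9 members. Of the genes with the highest means, Srebf1, a regulator of fatty acid synthesis, had a log2 fold change of 0.11, Klf5 0.55 and Cebpb 1.02, and these did not pass.

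Among lipid droplet proteins 0 of 11 passed. Plin2, the perilipin found on droplets of most cells, lay above every control library in all 3 luteolin libraries, with 159 ± 11.1 CPM in control and 249.1 ± 21.98 CPM in luteolin (SD, n = 3 each). Its log2 fold change of 0.65 (SE 0.14), at an adjusted p of 0.0756 in edgeR's test, was below the fold threshold, and its libraries were spread far less than those of Plin1 and Plin4. Plin3 and Cavin1, a caveolar coat protein, had log2 fold changes of -0.17 and -0.19. Cidea, a relative of Cidec, had 5, 0 and 34 counts in control and 24, 1419 and 8 in luteolin (adjusted p = 0.266 in edgeR's test) and was chosen after its values were seen.

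Of 10 lipolysis genes 2 passed, G0s2, an inhibitor of the first lipase of the droplet, and Mgll, monoacylglycerol lipase. G0s2 had 19, 32 and 36 counts in control and 416, 723 and 110 in luteolin, a log2 fold change of 3.69 (adjusted p = 0.0598 in edgeR's test), with no overlap of the groups. Mgll had 330, 222 and 316 against 458, 8781 and 169 counts, so that its log2 fold change of 3.14 came with luteolin replicate 3 below every control library. Pnpla2, the lipase that acts before Lipe, had 54.6 ± 11.5 CPM in control and 58.2 ± 20.9 CPM in luteolin (SD, n = 3 each). Abhd5, its activator, and Pde3b, through which insulin restrains lipolysis, had log2 fold changes of 0.42 and -0.24.

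Fatty acid uptake and binding had 2 of 8 genes past the threshold, Fabp5 and Acsl1. Fabp5, the closest relative of Fabp4 in the lists and a carrier of epidermis and macrophages, had 1701, 1479 and 1087 counts in control and 5844, 33888 and 5647 in luteolin. The change of Fabp5 was 3.20 on the log2 scale (SE 0.64), at an adjusted p of 0.0659 in edgeR's test. Unlike Fabp4, it was lowest in control replicate 3 and separated the groups. The fatty acid transporters Slc27a4 and Slc27a1 had log2 fold changes of 0.23 and 0.46. In triglyceride synthesis 0 of 13 genes passed. The most abundant, Scd2, Fasn and Scd1, had log2 fold changes of -0.12, -0.15 and 0.97, and Scd1 had 70285 counts in luteolin replicate 2 against 11406 to 17730 in the other libraries. Of the 7 receptors and insulin signalling genes 0 passed. The adiponectin receptors Adipor1 and Adipor2 each had a log2 fold change of -0.07 and the insulin receptor gene Insr one of -0.26. Irs1, an adaptor of the insulin receptor chosen after its values were seen, had 85.5 ± 10.9 CPM in control and 44.8 ± 4.50 CPM in luteolin (SD, n = 3 each; log2 fold change -0.93, adjusted p = 0.0505 in edgeR's test).

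Marker lists of other cells were summed beside the adipocyte genes. The 10 keratinocyte genes had 5.35, 5.14 and 4.61 CPM in control replicates 1, 2 and 3 and 405, 9242 and 17.6 CPM in luteolin replicates 1, 2 and 3. In control replicate 3, where the 6 summed adipocyte genes had 24.1 CPM, 7 of the 10 keratinocyte genes were at or under 3 counts. Krt14 and Krt5, keratins of the basal epidermis, had 0 counts there, and the 3 genes above that limit, Krt10, Sfn and Col17a1, had 208, 56 and 33 counts (Sfn and Col17a1 were chosen after their values were seen). The 9 sebaceous gland genes ranged from 4.71 to 9.99 CPM in control and had 20.2, 439 and 14.7 CPM in luteolin. Of its most abundant genes Krt79 was at 0 counts in each control, Fa2h had 8, 4 and 0 counts and Far2 had 169, 348 and 476. The 10 skeletal muscle genes had 513, 907 and 1246 CPM in control and 420, 1309 and 293 CPM in luteolin. Luteolin replicate 2 and control replicate 3 were the highest, as in the adipocyte sum. Luteolin replicates 1 and 3 were below every control library, whereas in the adipocyte sum both were above control replicates 1 and 2. The most abundant muscle genes, Acta1, Myh4 and Atp2a1, had at least 2813 counts in every library.

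The 7 fibroblast genes ranged from 1395 to 1559 CPM in control and had 4077, 5033 and 2015 CPM in luteolin, and 6 of them passed the study's threshold. Mmp2, a collagenase of stromal cells, had a log2 fold change of 1.91 with an adjusted p of 0.0429 in edgeR's test, and Col3a1, Col1a1 and Col1a2 had log2 fold changes of 1.23, 1.41 and 1.06. The 8 macrophage genes ranged from 1740 to 1999 CPM in control and from 2245 to 3113 CPM in luteolin, and the 7 endothelial genes from 106 to 123 CPM in control and from 114 to 296 CPM in luteolin. Of the macrophage genes Lyz2 had a log2 fold change of 0.23, Mrc1 0.74 and C1qa 0.80, and of the endothelial genes Pecam1 1.05, Cdh5 0.67 and Egfl7 0.11. At the study's threshold, which 11.3% of all tested genes passed as higher, 9 of 9 tested keratinocyte genes, 4 of 7 sebaceous gland, 2 of 8 macrophage, 2 of 7 endothelial and 0 of 10 muscle genes were higher. The part of keratinocytes, sebaceous glands, muscle, stroma, macrophages and endothelium in the levels of the adipocyte genes was not tested.

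**Figure D5:**
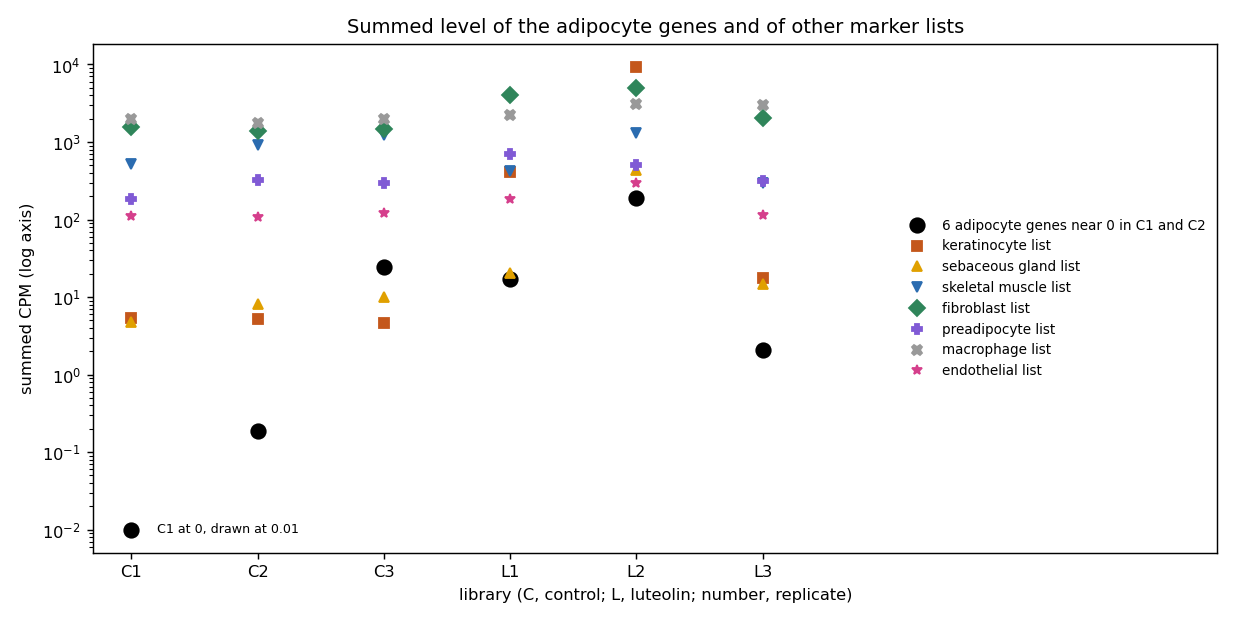
Summed CPM (log axis) of Adipoq, Plin1, Cfd, Lep, Cidec and Retn and of 7 marker lists in each library. The adipocyte sum in control replicate 3 (24.1 CPM) is above that in luteolin replicates 1 (16.9 CPM) and 3 (2.10 CPM), while the keratinocyte sum is 4.61 CPM there and 9242 CPM in luteolin replicate 2.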

How the data were processed

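Of the 6 libraries, all were used and 0 columns were left out. The authors deposited estimated counts, given as whole numbers for each symbol in each library and not scaled. Multiples of 4 made up 44.8% of values between 1 and 40 (25% in an even spread), so 1 unit need not be 1 read pair. The submitters' processing notes name bcl2fastq 2.0, HISAT2, StringTie and DESeq2 and the builds mm39 and rn6, and the counting command is not given in the sources used here. The labels and the paper name different kits for RNA extraction and library preparation.

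Counts were compared in R 4.3.3 with edgeR 4.0.16 (TMM, filterByExpr, quasi-likelihood test, no covariates) and p values were adjusted by Benjamini-Hochberg over 14963 genes. Alternatives used DESeq2 1.42.0, limma 3.58.1 (voom with sample quality weights), RLE and upper-quartile scaling, other filters, counts divided by 4, a replicate block and each library left out. The pipeline was tested on simulated data. Lists of genes were written by hand, and the members and lists were chosen with earlier results of these data known. Genes named from the lists by rule are the 3 with the highest mean CPM in each list, those with an adjusted p under 0.05 and set partners of the members (Fabp5, Plin2, Pnpla2). Other list genes that are named were chosen after their values were seen. Log2 CPM has a prior count of 2. Standard errors of edgeR were worked back from the test, as the absolute log2 fold change divided by the square root of the F statistic. They are approximate where a group is at 0 counts. Promoters came from RefSeq on GRCm38.p6 and gene lengths from GENCODE M21.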

Additional observations from a re-analysis of the deposited data

How the results depend on the processing

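The number of members higher at the study's threshold was 1 of 9 in the main test and 2 of 10 with DESeq2 (Pparg and Lep). It was 3 of 9 with voom (Pparg, Plin1 and Cfd) and 2 of 10 without a filter on low counts. The counts over all genes in these 4 fits were 1687, 2004, 1752 and 1947, or 11.3%, 11.5%, 11.7% and 10.9% of the genes tested. The number of members ranged from 1 to 5 with single libraries left out. At an adjusted p under 0.05 it was 0, and 1 with DESeq2 and with voom, where 1958 and 3197 of all genes passed in either direction, against 228 in the main test. The pathway lists had 12 such genes, 7 with voom and 4 to 15 with single libraries left out. The count over all genes ranged from 1139 to 2104 with single libraries left out. Of 120 fold changes of the 9 tested members under alternatives, 4 turned sign, all without luteolin replicate 2, 8 newly passed the threshold and 0 lost it, and the cause was not tested. With single libraries left out, the log2 fold change ranged from -0.66 to 11.57 for Adipoq, from -0.025 to 2.30 for Fabp4, from -1.96 to 9.72 for Retn and from -0.15 to 0.43 for Lipe, the lowest of each without luteolin replicate 2. The values of Adipoq and Retn without control replicate 3 were fitted against controls at 0 counts and are no measure of size. With the replicate number as a block, 1 member again passed, 8 pathway-list genes and 1293 of all genes did, and Pparg had an adjusted p of 0.31 in edgeR. Deviations of same-numbered libraries from their group means correlated at -0.196, -0.092 and 0.063 for numbers 1, 2 and 3, so the numbers were not taken as pairs. At the depth of these libraries, members at 0 counts could be present at up to 3 counts.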

Other observations

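Brown and beige fat markers were measured beside the white adipocyte genes. Ucp1, the uncoupling protein that defines brown fat and was chosen after its values were seen, had 8 counts in control replicate 3 and 0 counts in each of the other 5 libraries. Of 7 tested genes in the brown and beige list 2 passed the study's threshold as higher, where 11.3% of all tested genes did. They were Elovl3, a fatty acid elongase also made by sebaceous glands that was chosen after its values were seen, and Tmem26. Elovl3 had 0, 5 and 5 counts in control and 112, 2446 and 53 in luteolin. Tmem26 had 145, 208 and 264 counts in control and 523, 745 and 1141 in luteolin, highest in the library where Adipoq had 4 counts. The most abundant gene of the list, Ppargc1a, a coactivator of PPARγ, had a log2 fold change of -0.45, and Cox7a1 one of -0.25.

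Of 6 tested genes of adipocyte progenitors 4 passed the study's threshold as higher, against 11.3% of all tested genes, namely Pi16, Dpt, Dpp4 and Cd34, of which all but Pi16 were chosen after their values were seen. In 3 of the 6, Pi16, Dpt and Pdgfra, every luteolin library was above every control library, as in 15.9% of all tested genes. Pi16, a marker of progenitors in the connective tissue around fat, had 243, 258 and 371 counts in control and 4393, 2664 and 1188 in luteolin, with a fold change of 3.21 on the log2 scale (SE 0.53) and an adjusted p of 0.045 in edgeR's test, and was highest in luteolin replicate 1. Pdgfra and Ly6a, the most abundant of the list, had log2 fold changes of 0.83 and 0.60. Dlk1, the gene of this list that was not tested, went the other way at low counts. It had 20, 0 and 13 counts in control and 0, 4 and 0 in luteolin, and was chosen after its values were seen. The part of fibroblasts in the levels of the progenitor genes was not tested. Of the milk and mammary epithelial genes, Wap was at 0 counts in every library and Csn2 at 0 in each control, both chosen after their values were seen, and Csn3 had 45, 215 and 1153 counts in control and 299, 5 and 517 in luteolin. Krt18 and Krt8 of that list had log2 fold changes of -0.22 and 0.06. Of its 4 tested genes 1, Prlr, passed the study's threshold as higher, against 11.3% of all tested genes. Prlr, the prolactin receptor gene, had 0, 12 and 12 counts in control and 44, 353 and 45 in luteolin. Elf5 had 96 counts in luteolin replicate 2 and 0 in every other library. Prlr and Elf5 were chosen after their values were seen.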
